A study of Oryza sativa with 40 samples.

Results

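HSP101 and HSA32 are 2 rice genes of heat tolerance, and they are described here by their rows, 2 of the 19308 genes measured, across all 10 groups of leaves. HSP101 was taken as LOC_Os05g44340, on chromosome 5 from 25803530 to 25807160 on the minus strand (build IRGSP-1.0), annotated as heat shock protein 101. HSA32 was taken as LOC_Os06g46900, on chromosome 6 from 28463764 to 28466297 on the minus strand, annotated as a phosphosulfolactate synthase-related protein. The genes were chosen by name and not ranked by their values, but earlier results of these data were known.

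HSP101 belongs to the ClpB (HSP100) class of ATPases, which pull proteins out of aggregates and hand them to the HSP70 chaperones for refolding. Plants without it fail to survive heat that acclimated plants otherwise withstand. HSA32, a heat stress-associated protein, extends the memory of a past heat treatment, and in Arabidopsis and rice the HSP101 and HSA32 proteins sustain each other during recovery. In Arabidopsis heat stress transcription factors induce both genes.

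The 40 libraries come from leaves of Oryza sativa cultivar IR64 that were already full-grown, from plants raised hydroponically at 30 °C by day and 25 °C by night. Warm groups stayed at 30/25 °C and were taken at 0, 2, 6 and 24 h. Hot groups (40/35 °C) and cold groups (25/20 °C) were taken 2, 6 and 24 h after the move, which came 3 h into the day, so that the 0 and 24 h samples share a time of day and the 2 and 6 h samples come later in it. Each group has 4 libraries (n = 4 throughout), and 4 of 12 tanks were assigned to each regime.

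Values are read counts scaled to library size (CPM), or the log2 of CPM as deposited, and depth per library ran from 1830817 to 9628451 reads, so that 3 reads stood for 0.293 to 2.059 CPM. The labels do not say which tank or plant gave which library, so a p-value measures the spread between libraries, which may be partly technical. Warm 0 h replicate 1 stood apart from its group, with a mean correlation of 0.86 to its mates, and hot 24 h replicate 1 was next, at 0.894. Warm libraries ran on sequencing lanes 1 and 2, hot ones on 2 and 3 and cold ones on 3 and 4, so lane and regime are partly confounded. Warm and cold leaves share no lane, nor do hot and cold leaves at 24 h, and there lane and regime cannot be told apart. The summed level of 4 leaf mesophyll marker genes was at least 8525 CPM in every library. The summed level of 4 vascular markers was at most 247.4 CPM. That maximum was in hot leaves at 24 h, where the vascular sum varied between libraries from 10.73 to 247.4 CPM. The samples are leaf sections of mixed cells, in which fewer cells of a type and less RNA per cell cannot be told apart.

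Through the day in warm leaves, both genes fell from morning to afternoon and were back by the next morning. HSP101 stood at 48.3, 50.5, 31.4 and 18.8 CPM in the 4 warm libraries at 0 h and at 15.1, 7.75, 21.8 and 13.2 CPM at 2 h. It was at 4.89, 6.19, 8.50 and 5.57 CPM at 6 h, and at 27.4, 32.5, 32.3 and 18.99 CPM at 24 h. All libraries at 6 h lay below all those at 0 h and at 24 h, whereas those of 0 and 2 h overlapped. A full separation of 6 h below 0 h was seen for 15.9% of genes, and of 24 h above 6 h for 15.8%.

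HSA32 was at 37.6, 21.0, 9.93 and 8.49 CPM at 0 h and at 3.52, 1.58, 4.78 and 2.39 CPM at 2 h. At 6 h it was close to the limit of detection, with 2, 3, 0 and 6 reads in the 4 libraries, or 0.288, 0.404, 0.0 and 0.586 CPM. By 24 h it stood at 11.8, 10.9, 11.7 and 5.80 CPM. Its libraries did not overlap between 0 and 2 h, between 2 and 6 h, or between 6 and 24 h. The first of these separations was shared by 9.28% of genes and the second by 12.5%. Warm 0 h replicate 1 had the highest HSA32 level of all 40 libraries.

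**Figure D1:**
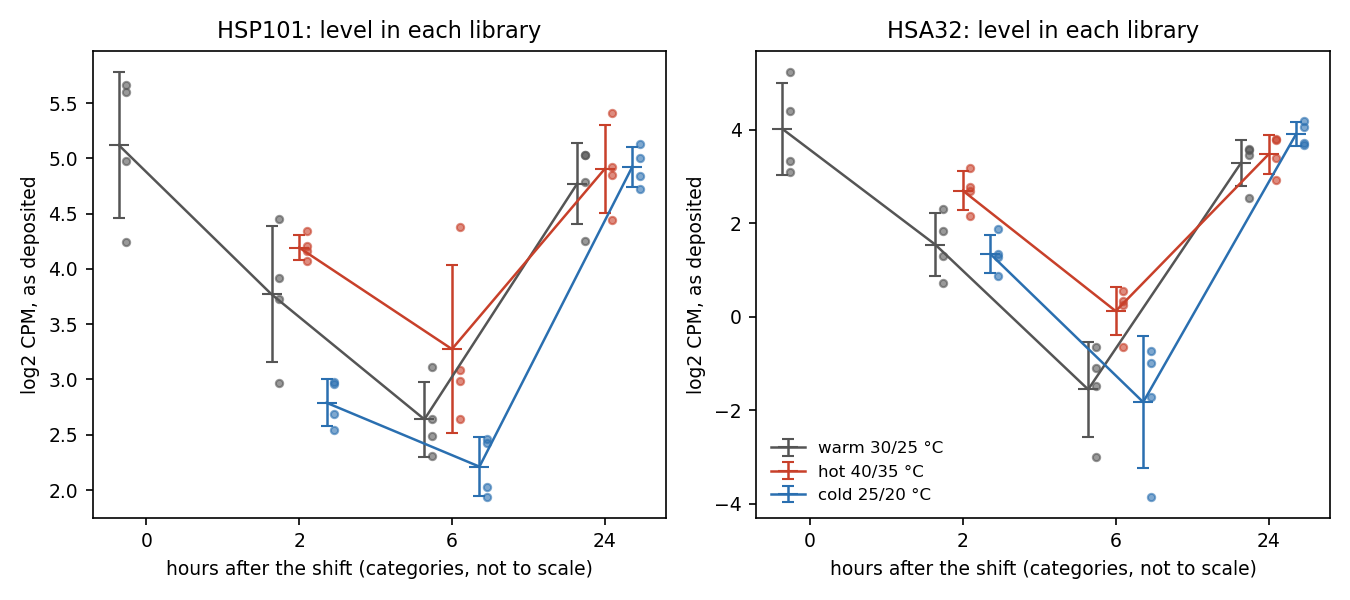
Level of HSP101 (left) and HSA32 (right) in each of the 40 libraries, as deposited log2 CPM, against hours after the shift. Points are libraries, and bars are group means ± SD (n = 4) for warm (grey), hot (red) and cold (blue) leaves. Both genes are lowest at 6 h in every regime, with HSP101 at 4.89 to 8.50 CPM in warm leaves, and HSA32 at 0 reads in 1 warm and 1 cold library.

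These changes over the warm hours passed an F test of limma across all genes for both transcripts (adjusted p = 5.47e-08 for HSP101 and 9e-11 for HSA32). The same test called 44.7% of all genes, so a course through the day is common in these leaves. Between 0 and 6 h HSP101 fell by 2.48 ± 0.30 (log2, SE, limma adjusted p = 2.34e-08), which is 5.58-fold. HSA32 fell by 5.57 ± 0.51 (adjusted p = 3.96e-11). A fall was called for 19.6% of genes in that interval, and the median of all genes was 0.08. Of the 19308 genes, 615 fell by more than HSP101, and 25 by more than HSA32.

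The size of the HSA32 change rests on few reads at its low point. Summed over libraries, 346 reads at 0 h stood against 11 at 6 h, a ratio of pooled CPM of 50 with an exact 95% interval of 27.6 to 101, which covers counting error only. The pooled ratio for HSP101, from 678 and 171 reads, was 6.31, with an interval of 5.33 to 7.5.

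The fall was spread over both parts of the interval. From 0 to 2 h HSP101 fell by 1.35 ± 0.30 (adjusted p = 0.00121) and HSA32 by 2.47 ± 0.51 (adjusted p = 0.000489), where 9.69% of genes were called lower. The HSP101 step missed the threshold when only these groups entered the fit (adjusted p = 0.0561). From 2 to 6 h HSP101 fell by a further 1.13 ± 0.30 (adjusted p = 0.00618) and HSA32 by 3.10 ± 0.51 (adjusted p = 2.09e-05), with 10.5% of genes called lower. On the log2 of CPM plus 1, which weighs low values less, the HSA32 step from 2 to 6 h was -1.58 and still passed. Within lane 1 the change from 0 to 6 h was -2.93 for HSP101 and -5.60 for HSA32, from 3 libraries at 0 h and 2 at 6 h. Within lane 2, with 1 library at 0 h and 2 at 6 h, it was -1.44 and -4.93.

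From 6 to 24 h HSP101 rose by 2.13 ± 0.30 (adjusted p = 6.2e-07) and HSA32 by 4.84 ± 0.51 (adjusted p = 1.32e-09), where 15.5% of genes were called higher. The HSA32 rise was 3.04 on the log2 of CPM plus 1. At the matched time of day, 24 h against 0 h, neither differed beyond the spread. HSP101 was at -0.35 (95% interval -0.96 to 0.27, adjusted p = 0.549) and HSA32 at -0.73 (-1.76 to 0.31, adjusted p = 0.44), and 2.92% of genes were called in either direction. The summed leaf mesophyll markers moved along the same course, from a median of 96150 CPM at 0 h to 21060 at 6 h and 89120 at 24 h. RCA, the highest of them at 0 h, had a mean log2 CPM of 15.744, 12.326 and 15.689. PSBO was at 12.835, 11.15 and 12.481. The RBCS genes were at 13.001, 12.174 and 13.649 (LOC_Os12g17600) and at 13.826, 12.714 and 14.217 (LOC_Os12g19381). All were lowest at 6 h, but by unlike amounts. The guard cell marker SLAC1 went from 30.9 to 13.0 and 33.6 CPM, whereas the summed vascular markers stood at 40.3 CPM at 0 h, 39.2 at 6 h and 76.5 at 24 h. Most of that sum was SUT1, at a mean log2 CPM of 5.46, 5.02 and 6.04. CESA4 was at 0.41, 0.74 and 2.11, and CESA7 and CESA9 were lower still. The part of these markers in the HSP101 and HSA32 course was not tested.

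Leaves moved to another temperature kept this shape. In hot leaves HSP101 was at 17.8, 18.3, 20.1 and 16.7 CPM at 2 h, at 6.20, 20.8, 7.86 and 8.37 CPM at 6 h and at 21.6, 42.3, 30.2 and 28.7 CPM at 24 h. In cold leaves it was at 7.76, 6.33, 7.68 and 5.72 CPM at 2 h, at 4.00, 5.42, 3.78 and 5.26 CPM at 6 h and at 28.6, 34.8, 32.04 and 26.3 CPM at 24 h. The 4 hot libraries at 2 h were tightly grouped, while at 6 h a single hot library, replicate 2, stood far above the other 3.

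HSA32 in hot leaves was at 4.36, 6.77, 6.34 and 8.97 CPM at 2 h, at 1.13, 0.551, 1.19 and 1.36 CPM at 6 h (28 reads in all) and at 7.48, 13.9, 13.6 and 10.4 CPM at 24 h. In cold leaves it was at 2.35, 3.56, 1.73 and 2.45 CPM at 2 h, at 0.534, 0.0, 0.445 and 0.202 CPM at 6 h (9 reads in all) and at 13.0, 18.1, 16.5 and 12.6 CPM at 24 h. Each regime therefore had its lowest HSA32 group at 6 h. The hot 6 h library with the highest HSP101 level, replicate 2, had the lowest HSA32 level of its group.

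The return from 6 to 24 h passed in both shifted regimes, in comparisons added after the data were seen. HSP101 rose by 1.63 ± 0.30 in hot leaves (adjusted p = 3.81e-05, 21.5% of genes called higher) and by 2.71 ± 0.30 in cold leaves (adjusted p = 6.12e-09, 15.2% called higher). HSA32 rose by 3.35 ± 0.51 in hot leaves (adjusted p = 1.58e-06). In cold leaves it rose by 5.73 ± 0.51 (adjusted p = 3.76e-11), and 7 genes rose by more. On the log2 of CPM plus 1 the cold rise was 3.64.

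From 2 to 6 h HSA32 fell by 2.58 ± 0.51 in hot leaves (adjusted p = 0.000195, 14.2% of genes called lower) and by 3.17 ± 0.51 in cold leaves (adjusted p = 1.18e-05, 14% called lower). The cold fall was -1.44 on the log2 of CPM plus 1, and passed. HSP101 fell by 0.92 ± 0.30 in hot leaves (adjusted p = 0.0226). This missed the threshold when hot 2 h replicate 3, or any of replicates 1, 3 and 4 of hot 6 h, was dropped (adjusted p from 0.0564 to 0.111). In cold leaves its change was -0.58 (-1.19 to 0.04, adjusted p = 0.155), from a level at 2 h that was already low. All 4 cold libraries at 6 h were nevertheless below all 4 at 2 h, as for 16.3% of genes.

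Whether heat raised either gene was asked by comparing hot with warm leaves of the same hour. HSP101 did not pass at any hour. It was 0.42 higher at 2 h (95% interval -0.19 to 1.04, adjusted p = 0.417), 0.64 higher at 6 h (0.02 to 1.25, adjusted p = 0.227) and 0.13 higher at 24 h (-0.48 to 0.75, adjusted p = 0.98). Hot and warm libraries overlapped at each hour. With lane and a replicate block together the values at 2 and 6 h were 0.08 and 0.16. Dropping 1 library at a time gave 0.156 to 0.652 at 2 h and 0.266 to 0.845 at 6 h. At 2 h the interval excludes an HSP101 rise of more than 1.04 on the log2 scale. The 1 hot library that shares lane 2 with warm 6 h libraries differed from their mean by -0.154, and for HSA32 by 2.07.

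HSA32 was 1.16 higher in hot leaves at 2 h (0.12 to 2.19, adjusted p = 0.157), which did not pass. Over 12 alternative settings this 2 h difference ranged from 0.93 to 1.67 and passed in 1 (limma adjusted p = 0.0482). At 24 h HSA32 was 0.18 higher (-0.85 to 1.21, adjusted p = 0.985), which did not pass either. At 6 h it rose by 1.68 ± 0.51 (adjusted p = 0.0378), where 2.39% of genes were called higher. Hot replicate 2, at 0.551 CPM, lay below warm replicate 4, at 0.586 CPM, and the pooled ratio of 28 to 11 reads was 2.78 with a counting interval of 1.34 to 6.19. The call did not survive voom weights, a lane term (also beside a replicate block), the log2 of CPM plus 1, or a fit of these groups only. Dropping warm replicate 1 or 3, or hot replicate 1, 3 or 4, ended it too. Adjusted p over these settings reached 0.288, and the difference ranged from 0.64 to 1.92.

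At 2 h 3.63% of genes were called higher in hot leaves, and at 24 h limma called 0 of 19308 genes, with 1206 at an unadjusted p under 0.05 and 0 to 3 calls over the alternative settings. The hot change of HSA32 at 6 h was not shown to differ from that at 2 h (difference 0.52, -0.94 to 1.98, adjusted p = 0.919) or from that at 24 h (24 minus 6 h, -1.49, -2.95 to -0.035, adjusted p = 0.356). None of the 12 differences between hours, over both genes and both shifts, passed. Over all genes 0.0673% and 1.09% were called in these comparisons.

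Cold leaves did not differ from warm leaves beyond the threshold for either gene, nor was any other gene called at any hour. limma called 0 genes at 2, 6 and 24 h, with 1251, 869 and 1457 genes at an unadjusted p under 0.05, and the alternative settings called at most 4. HSP101 differed by -0.98 in cold leaves at 2 h (-1.59 to -0.37, unadjusted p = 0.00256, adjusted p = 0.529), which ranked 87 by p among all genes. The highest cold library, at 7.76 CPM, lay just above the lowest warm one, at 7.75 CPM. At 6 h the value was -0.43 (-1.04 to 0.19) and at 24 h 0.15 (-0.46 to 0.76).

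HSA32 in cold leaves was at -0.20 relative to warm leaves at 2 h (-1.23 to 0.83) and at -0.27 at 6 h (-1.30 to 0.76), the latter from 20 reads in both groups together. At 24 h it was 0.61 higher (-0.42 to 1.65, adjusted p = 0.815). All 4 cold libraries then lay above all 4 warm ones, with the lowest cold library at 12.6 CPM and the highest warm one at 11.8 CPM, a separation seen in this direction for 2.39% of genes.

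**Figure D2:**
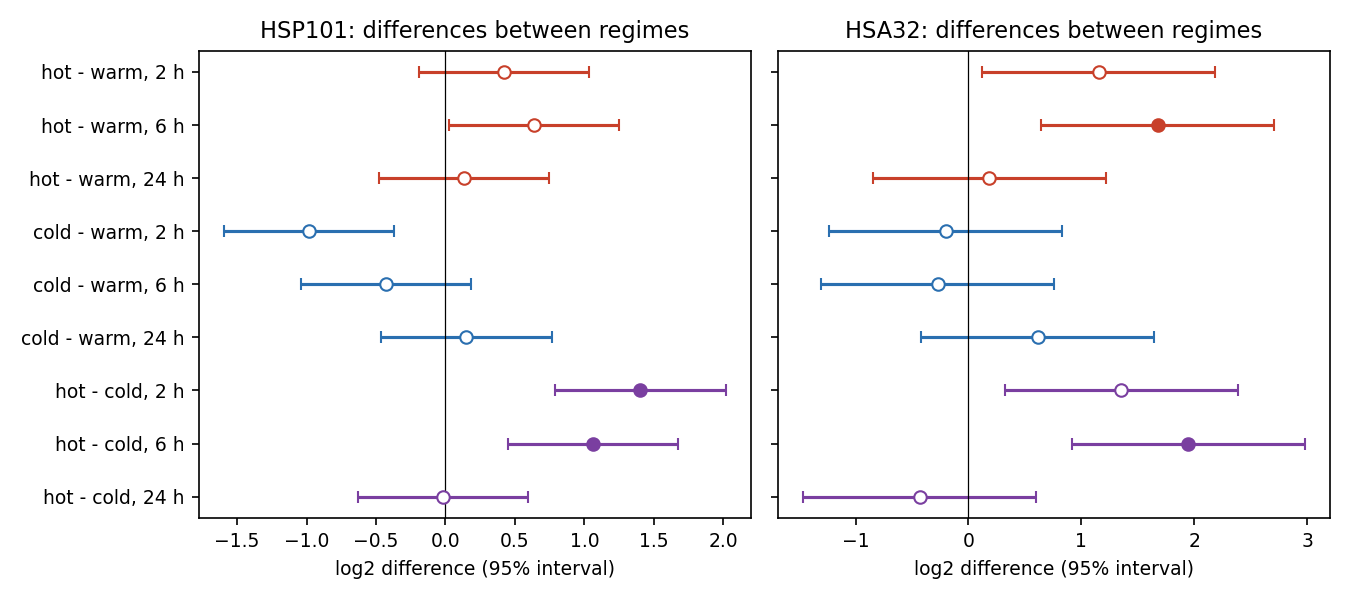
Differences between regimes at the same hour for HSP101 (left) and HSA32 (right), as log2 differences with 95% intervals from the fit. Filled points passed an adjusted p of 0.05, and open points did not. HSP101 passes between hot and cold leaves at 2 and 6 h, at 1.40 and 1.06, and HSA32 passes at 6 h against both warm and cold leaves, at 1.68 and 1.95.

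The extremes of temperature were set against each other at each hour. HSP101 was called higher in hot than in cold leaves at 2 and 6 h, and HSA32 at 6 h alone, with both 6 h calls lost under some settings. At 2 h HSP101 was 1.40 ± 0.30 higher in hot than in cold leaves (adjusted p = 0.00157), or 2.65-fold, where 6.73% of genes were called higher. The lowest hot library, at 16.7 CPM, was above the highest cold one, at 7.76 CPM, a separation found in this direction for 10% of genes. At 6 h the difference was 1.06 ± 0.30 (adjusted p = 0.022, 3.17% of genes called higher), again with no overlap, which 11.3% of genes show.

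The 2 h call for HSP101 held under every setting run. At 6 h, dropping hot replicate 2 left a difference of 0.69 (adjusted p = 0.172). The 6 h call also failed after dropping cold replicate 1 (1.00) or 3 (0.97), under voom weights and under a lane term. Within lane 3 the difference was 1.23 at 2 h, from 2 hot libraries and 1 cold one. At 6 h it was 1.46, from 3 hot libraries, replicate 2 among them, and 1 cold one. At 24 h it was -0.02 (-0.63 to 0.59), with 0 genes called by limma, 1469 at an unadjusted p under 0.05, and up to 423 when hot 24 h replicate 2 was left out.

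HSA32 was 1.35 higher in hot than in cold leaves at 2 h (0.32 to 2.39, adjusted p = 0.067). The groups did not overlap, with the lowest hot library at 4.36 CPM and the highest cold one at 3.56 CPM, a separation that 10% of genes show. The 2 h difference passed on the log2 of CPM plus 1 (adjusted p = 0.013), with voom weights (adjusted p = 0.0438), in a fit of these groups only (adjusted p = 0.0126) and without the libraries that stand apart (adjusted p = 0.042). Under a lane term it was 1.02 (adjusted p = 0.392). At 6 h it was 1.95 ± 0.51 higher (adjusted p = 0.0123), from 28 and 9 reads, a pooled ratio of 3.4 with a counting interval of 1.56 to 8.19. The 6 h call failed after dropping cold replicate 2, the library with 0 reads (1.27, adjusted p = 0.0975), and on the log2 of CPM plus 1 (0.67, adjusted p = 0.191). It failed as well under voom weights (adjusted p = 0.163), under a lane term (adjusted p = 0.208) and in a fit of these groups only (adjusted p = 0.0565). At 24 h the value was -0.43 (-1.46 to 0.60, adjusted p = 0.861). Within lane 3 the HSA32 difference was 1.65 at 2 h and 0.82 at 6 h, each against 1 cold library.

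Set against the leaves before the move, no shifted group stood above warm 0 h for either gene in these added comparisons, which share the 4 warm 0 h libraries. HSP101 was at -0.93 ± 0.30 in hot leaves at 2 h (adjusted p = 0.0202, 11.4% of genes called lower) and at -2.33 ± 0.30 in cold leaves at 2 h (adjusted p = 3.63e-07, 11.5% called lower). The hot call failed after dropping warm 0 h replicate 1 (-0.77, adjusted p = 0.0828) or 2 (-0.75) or hot 2 h replicate 4 (-0.89), under a lane term, and in a fit of these groups only. HSA32 was at -1.32 in hot leaves at 2 h (-2.35 to -0.29, adjusted p = 0.0507) and at -2.67 ± 0.51 in cold leaves at 2 h (adjusted p = 0.000139). The latter missed the threshold under a lane term, at -2.05. At 6 h HSP101 was at -1.85 in hot leaves (adjusted p = 4.25e-06, 23.2% of genes called lower) and -2.91 in cold leaves (adjusted p = 7.4e-10, 20.4% called lower), and HSA32 at -3.90 and -5.84 (adjusted p = 7.05e-08 and 1.22e-11). The cold HSA32 value was -3.75 on the log2 of CPM plus 1. At 24 h hot leaves were at -0.215 for HSP101 and -0.54 for HSA32, and cold leaves at -0.20 and -0.11, none of which passed, where 6.91% and 13.1% of genes were called in either direction.

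In order of mean level, HSP101 ran from warm 0 h, cold 24 h, hot 24 h and warm 24 h through hot 2 h, warm 2 h, hot 6 h, cold 2 h and warm 6 h to cold 6 h, the lowest at 4.62 ± 0.84 CPM (SD, n = 4). HSA32 followed the same order except that cold 2 h stood above hot 6 h. Every pair of neighbours in the HSP101 order overlapped in its libraries. For HSA32 only cold 2 h and hot 6 h did not, with 1.73 CPM as the lowest cold value and 1.36 CPM as the highest hot one. These groups differ in both regime and hour, and the share of all genes that separate between them was not counted.

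The transcripts changed together but by different amounts, as the log2 ratio of HSA32 to HSP101 within each library shows. Library scaling cannot move this ratio, but low counts can. All steps named next include a 6 h group, where HSA32 had 0 to 10 reads a library. The lowest ratios, -6.11 in warm and -6.30 in cold leaves at 6 h, came from libraries with 0 HSA32 reads. Their size depends on the 0.5 added to each read count. From 0 to 6 h in warm leaves this ratio fell by 3.09, with no overlap between the groups. It rose by 2.71 from 6 to 24 h. In cold leaves it fell by 2.59 from 2 to 6 h and rose by 3.02 from 6 to 24 h, and in hot leaves the same steps were -1.66 and 1.72. Each gave an exact 2-sided permutation p of 0.0286, the smallest that 4 against 4 libraries allow. After adjustment over the 18 comparisons made it was 0.0468. This minimum was reached by 11 of the 18, several of which share libraries. With fewer than 11 at the minimum, no adjusted p would have been under 0.05.

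Between regimes the ratio was 0.73 higher in hot than in warm leaves at 2 h (exact permutation p = 0.0286, adjusted 0.0468). It was also 0.46 higher in cold than in warm leaves at 24 h, and hot minus cold at 24 h was -0.41. Both had the same exact p and adjusted p, and in both the groups compared share no lane. On the log2 of CPM plus 1 the p-values were not adjusted, so whether the adjusted calls hold there was not tested. The steps from 2 to 6 h in warm and hot leaves and the hot difference at 2 h had an exact permutation p of 0.0571. The other steps named here kept an unadjusted exact p under 0.05. The ratio was tested because of the values seen.

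Whether the genes also deviate together from their group means was asked over the 40 libraries. Pearson's r of the deviations was 0.10 (permutation p = 0.6) and Spearman's rho was 0.16 (permutation p = 0.412). Without the 2 libraries farthest in HSP101, hot 6 h replicate 2 and warm 0 h replicate 4, r was 0.135. On the log2 of CPM plus 1, r was 0.42 (permutation p = 0.0606) and rho 0.347 (permutation p = 0.0733), and r was 0.486 without the 2 farthest libraries, so the size of the pooled value depends on the scale. By lane, with 10 libraries each, r was 0.802, 0.02, -0.718 and -0.496 on lanes 1 to 4. These values differ in sign, but a difference between lanes was not tested. Lane 1 held only warm libraries and lane 4 only cold ones. Across the 10 group means r was 0.948, and across the 40 libraries 0.858, as a description of points that share their groups, lanes and time of day.

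Among the other ATPases of the HSP100/Clp class, 10 were measured besides HSP101. These unfold proteins in the chloroplast, mitochondrion and cytosol, either to free them from aggregates, as ClpB does, or to feed them to the Clp protease, as ClpC, ClpD and ClpX do. Between 0 and 6 h in warm leaves 2 of the 10 fell and 1 rose, with a median of 0.02, against 19.6% of all genes lower and 24.3% higher. Both that fell carry the clpB annotation. CLPB-M (LOC_Os02g08490) changed by -1.91 ± 0.32 (limma adjusted p = 6.52e-06) and CLPB-C (LOC_Os03g31300) by -0.82 ± 0.23 (adjusted p = 0.00368). The gene that rose, LOC_Os12g12850, is annotated as a chloroplast clpA homolog and changed by 1.33 ± 0.23 (adjusted p = 1.49e-05).

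Hot leaves at 2 h had 0 of these 10 called, with a median of 0.14, where 3.63% of all genes were called higher and 4.58% lower. At 6 h, where 2.39% of all genes were called higher, 2 rose against warm leaves and 0 fell, with a median of 0.16. LOC_Os03g14280, a Clp protease ATP-binding subunit, rose by 1.01 ± 0.22 (adjusted p = 0.00379), and LOC_Os01g66330, annotated as clpX, by 0.58 ± 0.17 (adjusted p = 0.0288). Between hot and cold leaves CLPB-M was 0.99 ± 0.32 higher at 2 h (adjusted p = 0.0303). At 6 h CLPC1 (LOC_Os04g32560) was 0.56 ± 0.17 higher (adjusted p = 0.028) and LOC_Os03g14280 was 0.92 ± 0.22 higher (adjusted p = 0.00695). CLPD1 (LOC_Os02g32520), CLPD2 (LOC_Os04g33210), LOC_Os05g45750 and LOC_Os11g16590 passed in none of the comparisons named here.

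**Figure D3:**
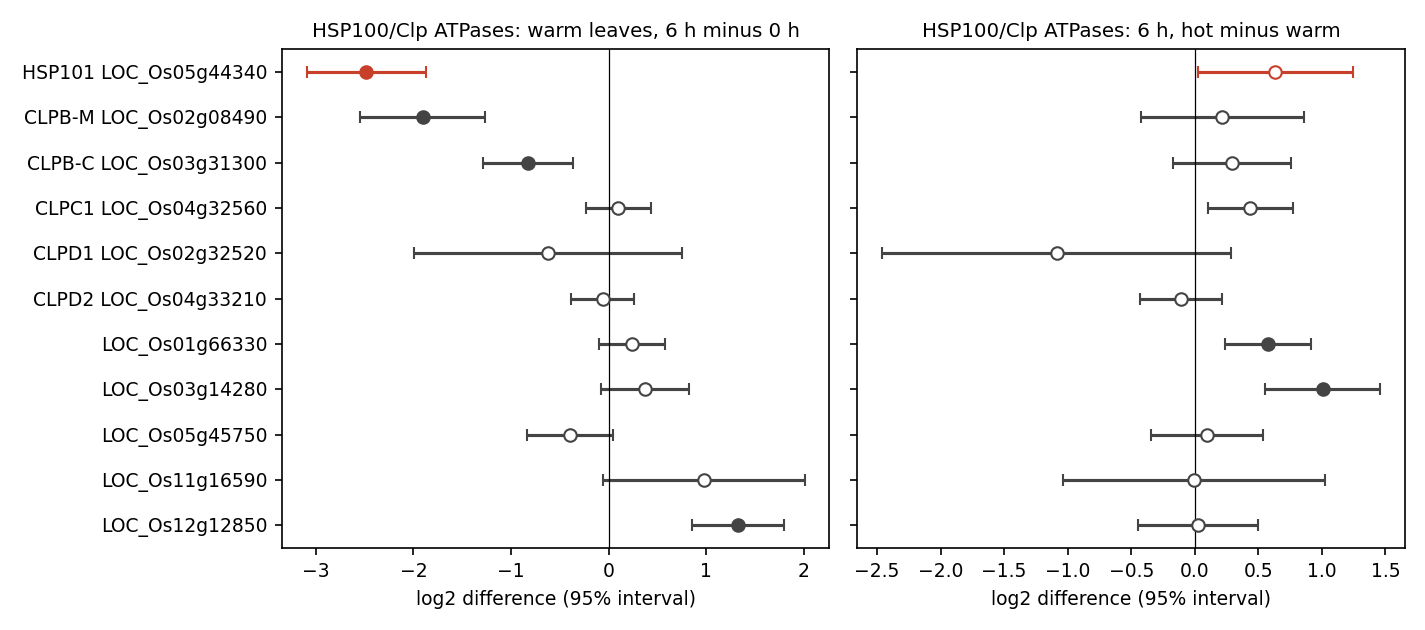
Log2 differences with 95% intervals for the 11 HSP100/Clp ATPases, between 6 and 0 h in warm leaves (left) and between hot and warm leaves at 6 h (right). Filled points passed an adjusted p of 0.05, and HSP101 is in red. HSP101, at -2.48, has the lowest value of the 11 on the left, ahead of CLPB-M at -1.91.

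The wider heat response was counted in 5 further lists, gathered by gene names. Product names of the ClpD, STI and HSP70 genes were added once the table had been read. Between 0 and 6 h in warm leaves, 6 fell and 1 rose of the 19 heat stress transcription factors (median -0.28). Of 19 small heat shock proteins, which hold unfolding proteins, 5 fell and 1 rose (median -0.47). Of 18 HSP70 genes 8 fell and 1 rose (median -0.43). For HSP90 the counts were 3 of 7 lower and 1 higher (median -0.71). Of 5 other thermotolerance factors besides HSA32, 3 fell and 1 rose (median -1.35). Across all genes 19.6% were lower and 24.3% higher.

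Genes singled out for their size after the values were seen include HSFA2D (LOC_Os03g06630), a class A heat stress transcription factor, at -3.97 ± 0.36 (limma adjusted p = 2.72e-11). The small heat shock protein LOC_Os06g14240 was at -4.15 ± 0.67 (adjusted p = 3.79e-06). MBF1C (LOC_Os06g39240), a coactivator tied to heat tolerance in Arabidopsis, was at -3.86 ± 0.97 (adjusted p = 0.00137). Its mean log2 CPM was 0.098 at 0 h and -3.761 at 6 h. HSFC1B (LOC_Os01g53220) went the other way, at 7.33 ± 0.53 (adjusted p = 1.43e-13), from a mean log2 CPM of -2.585 to 4.74. The low end of both lies near the floor, so the sizes of these differences depend on the 0.5 added to each read count. HSA32 had the lowest value of all members of the 6 lists, at -5.57.

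**Figure D4:**
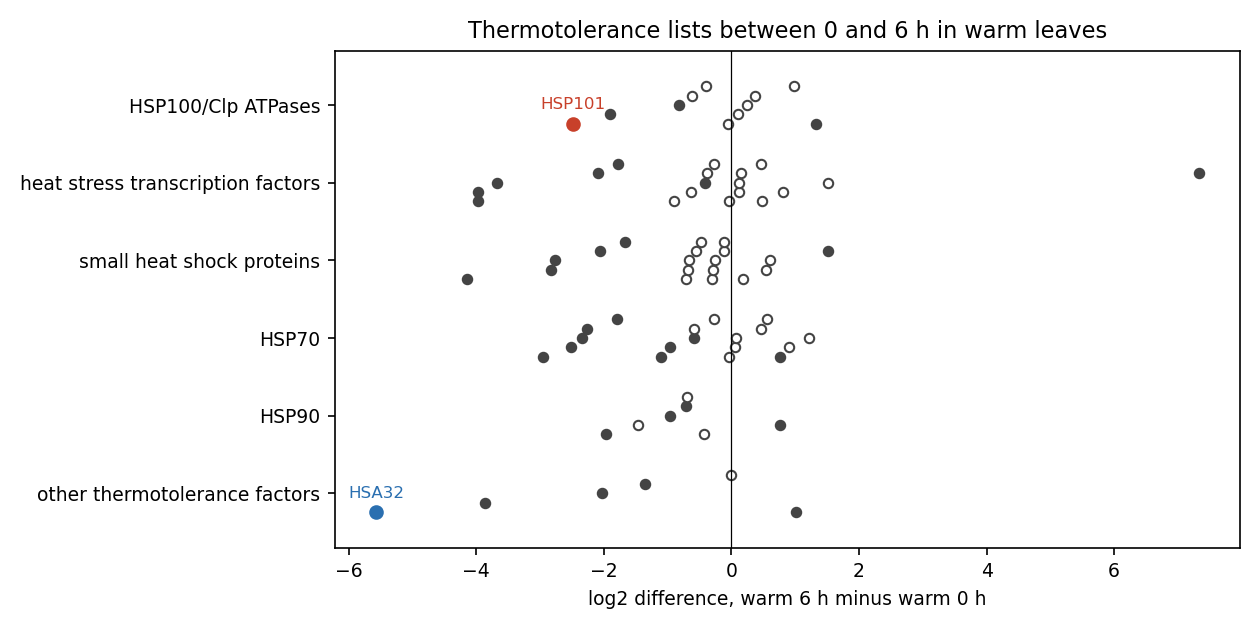
Log2 difference between 6 and 0 h in warm leaves for each measured gene of the 6 thermotolerance lists, with 1 row a list. Filled points passed an adjusted p of 0.05, and HSP101 (red) and HSA32 (blue) are named. HSA32, at -5.57, lies farthest to the left, and HSFC1B, at 7.33, farthest to the right.

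The lists were counted in the same way in hot against warm leaves. At 2 h in hot against warm leaves 0 of 19 transcription factors rose and 2 fell (median -0.71), and 0 of 19 small heat shock proteins rose and 1 fell (median -0.44). Of 18 HSP70 genes 3 rose and 1 fell (median 0.11), of 7 HSP90 genes 1 rose and 0 fell (median 0.58), and of the 5 other factors 0 changed (median -0.06). Over all genes 3.63% were called higher and 4.58% lower, with a median of 0.01. At 6 h 1 transcription factor, 1 small heat shock protein, 0 HSP70 and 1 HSP90 gene rose, and 1 transcription factor fell, where 2.39% of all genes were higher and 4.51% lower. All 7 HSP90 genes were above 0 at 6 h, from 0.24 to 1.37 with a median of 0.81, and 1 of them passed. The medians of the other lists were -0.02 for transcription factors, -0.08 for small heat shock proteins, 0.06 for HSP70 and 0.27 for the other factors, against -0.04 over all genes.

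Among called differences between shifted and warm leaves of the same hour, the largest of each list was as follows. HSFC1A (LOC_Os01g43590), a class C heat stress transcription factor, fell at 6 h by 2.79 ± 0.47 (limma adjusted p = 0.000187), from 2.56 to 0.273 CPM. This hot mean lies below the level of 3 reads in each hot 6 h library (0.338 to 0.584 CPM). The size of the fall therefore depends on the 0.5 added to each read count. The small heat shock protein LOC_Os06g14240 rose at 6 h by 2.53 ± 0.67 (adjusted p = 0.0153), from 1.92 to 10.3 CPM. Among HSP70 genes LOC_Os03g16860 fell at 2 h by 1.67 ± 0.34 (adjusted p = 0.00206), from 777 to 234 CPM. GRP94 (LOC_Os06g50300), the HSP90 of the endoplasmic reticulum, rose at 2 h by 0.97 ± 0.24 (adjusted p = 0.0106), from 204 to 404 CPM. HSFA2D rose at 6 h in hot leaves by 1.13 ± 0.36 (LOC_Os03g06630, adjusted p = 0.0476).

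By the correlation of the 10 group means, the genes most like HSP101 among 7214 candidates were LOC_Os10g37850 (armadillo, r = 0.974), LOC_Os03g41330 (DUF260 domain, r = 0.973), LOC_Os12g43930 (C3HC4 zinc finger, r = 0.971), LOC_Os06g06490 (U-box heat shock protein, r = 0.97) and LOC_Os03g02260 (DnaK family, r = 0.968). Over the 40 libraries their r was 0.813 to 0.907. Their log2 differences between 6 and 0 h in warm leaves ran from -4.05 to -1.04, a direction that the choice of these genes fixes. LOC_Os03g02260, an HSP70 gene, was also higher in hot than in warm leaves at 2 h, by 0.95 ± 0.28 (adjusted p = 0.0292), and higher in hot than in cold leaves at 2 h, by 1.70 ± 0.28 (adjusted p = 6.91e-05), and at 6 h, by 0.86 ± 0.28 (adjusted p = 0.0454). The other 4 passed in none of these 3 comparisons. The groups compared also entered the correlation, so the choice of genes favours differences in the direction of HSP101.

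For HSA32 the closest of 7215 candidates were LOC_Os06g47650 (phytosulfokine receptor precursor, r = 0.992), LOC_Os03g53910 (tetratricopeptide repeat, r = 0.987), LOC_Os04g12499 (amino acid transporter, r = 0.983), LOC_Os01g56360 (wax synthase, r = 0.982) and LOC_Os03g48030 (HPP family membrane protein, r = 0.981). None belongs to a heat list used here. Their log2 differences between 6 and 0 h in warm leaves ran from -4.55 to -1.64, again fixed in direction by the choice. In hot against warm leaves 2 of the 5 rose at 2 h, where 3.63% of all genes were called higher, and 1 at 6 h, where 2.39% were. LOC_Os06g47650 rose at both hours, by 0.67 ± 0.22 (adjusted p = 0.0477) and by 0.74 ± 0.22 (adjusted p = 0.0302). The hot and warm groups also entered the correlation, and the HSA32 mean was higher in hot leaves at both hours. The choice of these genes therefore favours such rises, and the shares of all genes are no baseline for them.

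HSA32 itself was no candidate, since its mean log2 value of 1.70 lies under the minimum of 2. At r = 0.948 between them, 28 candidates were more like HSP101 than HSA32 was, and 96 were more like HSA32 than HSP101 was. Candidates share the hours and regimes over which r was taken, so a high r describes a shape over 10 groups.

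**Figure D5:**
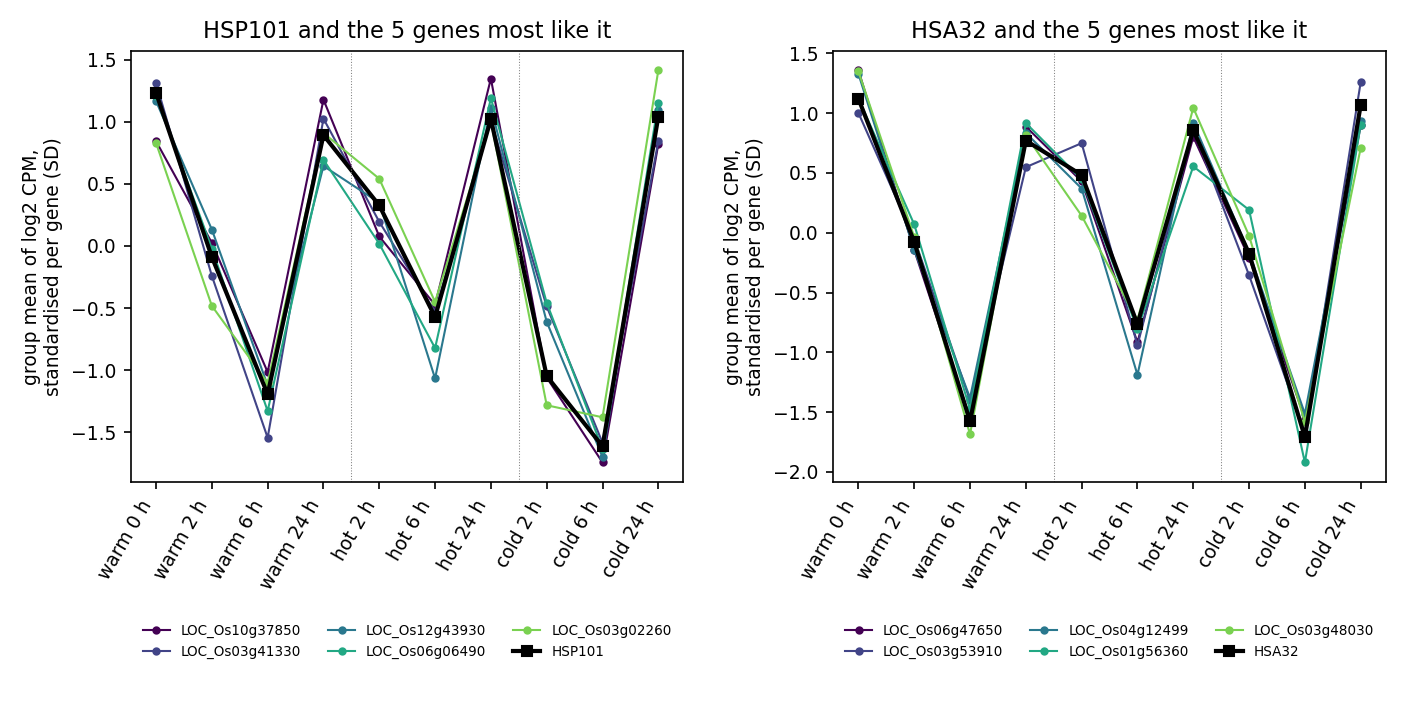
Group means of log2 CPM over the 10 groups, standardised per gene to a mean of 0 and SD of 1, for HSP101 (left) and HSA32 (right) in black and the 5 genes most like each in colour. All share low points at 6 h, and cold 6 h is the lowest group for both genes.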

How the data were processed

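Leaf RNA was sequenced from stranded libraries after removal of ribosomal RNA, in 61 single-end cycles, per the labels' protocols. The authors deposited a single table of log2 values, in the form voom gives to log2 CPM, with 0.5 added to each read count. Counting used featureCounts 1.5.0-p1 from Subread 1.5.0-p1, per the submitters' processing notes, which also name bcl2fastq, FastQC 0.11.2, bedtools and SAMtools 1.1-26. The same notes name limma 3.20.1, edgeR 3.4.2 and the build IRGSP-1.0. Whether counting used strand, how low genes were filtered and how libraries were scaled is not given in the sources used here. Reads were recovered from the deposited log2 values, of which 100.0% came out whole within 0.001. All columns of values were mapped to a library.

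Group means were fitted to the log2 values across all genes with limma 3.58.1 (R 4.3.3), using trended and robust variance moderation. The procedure was tested on simulated data. Tests were 2-sided, a call is a Benjamini-Hochberg adjusted p below 0.05 across the 19308 genes, and intervals are 95% intervals. Floors and pooled read ratios carry counting error only, because reads lacked molecular identifiers and are not independent molecules. Correlations were tested with 100000 permutations (Python 3.11.15, numpy 2.4.6, scipy 1.17.1). Plots were drawn with matplotlib 3.10.9.

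The members, lists and naming rule were chosen with earlier results of these data known. The rule named HSP101, HSA32, the 5 genes most like each (correlation of group means, mean log2 of at least 2, range of at least 1), every HSP100/Clp ATPase, and for each other list its largest called change with a shift. The list of other thermotolerance factors had no such call besides HSA32. Comparisons within hot or cold leaves, comparisons with warm 0 h, and the ratio within libraries were added after the data were seen. Alternatives were quantile normalization, a common median, log2 of CPM plus 1, filters (mean log2 of at least 0, or 10 reads in 4 libraries), plain variance moderation, voom weights, only the compared groups, a replicate block, lane terms, and dropped libraries.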

Additional observations from a re-analysis of the deposited data

Results flagged for a closer look

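HSA32 in warm leaves at 24 h held a library far from the other 3. Replicate 4 was at 5.80 CPM, whereas replicates 1 to 3 were at 10.9 to 11.8 CPM, and the gap to the nearest library was 0.877 of the group's whole range on the scale tested. This was the only flag among 20 groups of 4 libraries, and chance flags about 1 in 20 such groups. The same library had the lowest HSP101 level of its group, at 18.99 CPM. Without it the hot change at 24 h was -0.064 for HSA32 and -0.041 for HSP101, neither of which passed.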

How the results depend on the processing

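Both genes kept their direction and their calls in every alternative for the warm course, for 6 against 2 h, 6 against 0 h and 24 against 6 h in warm leaves, and for 24 against 6 h in hot and cold leaves. HSP101 did so for hot against cold at 2 h. Of 747 values of the 63 results on both genes under alternatives, 696 kept direction and call, 19 lost a call, 11 gained one and 21 changed sign. Of 612 values with 1 library dropped, 572 kept both. A change of sign occurred in 0 cases where either fit passed. All values are log2 differences, and the causes were not tested.

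No pairing of libraries by replicate number was seen under the rule used. In 0 of 14 comparisons did all 4 same-numbered pairs deviate together (correlations from -0.389 to 0.388, where over 0.1 was required). Comparisons within hot and within cold leaves were not checked, so pairing is not excluded. A replicate block changed no call of either gene, with HSA32 hot against warm at 6 h at 1.676 (adjusted p = 0.0464). Where the groups compared share no lane, lane terms link them only through libraries of other groups. With lane and replicate block, HSP101 gave 0.080, 0.164 and -0.339 (hot, 2, 6 and 24 h), -0.530 (cold, 24 h), 1.257 (hot minus cold, 6 h) and 0.191 (hot minus cold, 24 h). HSA32 gave 1.916 (hot, 6 h), 0.718 (cold, 2 h), 0.430 (cold, 6 h), 1.485 (hot minus cold, 6 h), -1.756 (cold 2 h minus warm 0 h) and 0.981 (cold 24 h minus warm 0 h).

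With lane alone, HSP101 gave -0.078 (hot, 24 h), -0.172 (cold, 24 h), 1.175 and 0.094 (hot minus cold, 6 and 24 h) and -0.965 (hot 2 h minus warm 0 h). HSA32 gave 1.714 (hot, 6 h), 0.419 and 0.194 (cold, 2 and 6 h), 1.521 (hot minus cold, 6 h), -2.054 and 0.679 (cold 2 and 24 h minus warm 0 h). On log2 of CPM plus 1, HSA32 gave 0.643 (hot, 6 h), 1.102 and 0.669 (hot minus cold, 2 and 6 h), -0.291 and 0.141 (hot and cold change, 6 minus 2 h) and -1.212 (hot 2 h minus warm 0 h). The following called HSA32 differences were smaller by over 1.5 times on this scale, at -1.579 (warm 6 minus 2 h), 3.039 (warm 24 minus 6 h), -1.438 (cold 6 minus 2 h), 3.638 (cold 24 minus 6 h) and -3.752 (cold 6 h minus warm 0 h), and kept their calls. The correlation of deviations was 0.42, and the ratio of HSA32 to HSP101 gave -0.27 (hot minus cold, 6 h).

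With only the compared groups, HSA32 gave 1.155 and 1.676 (hot, 2 and 6 h) and 1.354 and 1.947 (hot minus cold, 2 and 6 h), and HSP101 -1.350 (warm 2 minus 0 h) and -0.927 (hot 2 h minus warm 0 h). Voom weights gave HSA32 1.536 (hot, 6 h), 1.379 and 1.932 (hot minus cold, 2 and 6 h) and -1.302 (hot 2 h minus warm 0 h), and HSP101 1.033 (hot minus cold, 6 h). HSA32 at hot 2 h minus warm 0 h passed with quantile normalization (-1.386), a common median (-1.450) and both filters (-1.318). Quantile normalization gave its cold change, 6 minus 2 h, as 0.115, and a common median gave HSP101 0.013 (hot minus cold, 24 h).

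Without warm 0 h and hot 24 h replicate 1, HSA32 gave 1.354 (hot minus cold, 2 h), 0.047 and 0.295 (hot and cold 24 h minus warm 0 h). HSP101 gave 0.135 (hot minus cold, 24 h), -0.768 and 0.098 (hot 2 and 24 h minus warm 0 h), and the correlation of deviations was -0.015.

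With 1 library dropped at a time, HSP101 ranged from 0.156 to 0.652, 0.266 to 0.845 and -0.041 to 0.287 (hot, 2, 6 and 24 h), -0.022 to 0.236 (cold, 24 h), 0.694 to 1.273 and -0.186 to 0.135 (hot minus cold, 6 and 24 h), -0.157 to 0.479 (hot change, 6 minus 2 h), -1.287 to -0.709 (hot 6 minus 2 h) and -1.219 to -0.747 (hot 2 h minus warm 0 h). HSA32 ranged from 1.194 to 1.975 (hot, 6 h), -0.064 to 0.366 (hot, 24 h), -0.470 to 0.053 and -0.753 to 0.402 (cold, 2 and 6 h), 1.273 to 2.310 (hot minus cold, 6 h), -0.553 to 0.602 (cold change, 6 minus 2 h), -1.622 to -0.912 and -0.415 to 0.295 (hot 2 h and cold 24 h minus warm 0 h). The ratio ranged from -0.482 to 0.912 (cold minus warm, 6 h), -0.265 to 0.161 (hot minus cold, 2 h) and -0.046 to 0.139 (hot minus warm, 24 h), and the correlation of deviations from -0.045 to 0.296.

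The following counts of genes called moved by over 1.5 times, from 209 to 2705 for hot against warm at 2 h (1584 as reported), from 192 to 2793 at 6 h (1333), from 1010 to 4123 and from 565 to 4365 for hot against cold at 2 and 6 h (2907 and 1599), from 1813 to 4472 for warm 2 against 0 h (4307) and from 1 to 1507 for warm 24 against 0 h (564). Against warm 0 h they ranged from 2524 to 5421, 5441 to 9563 and 0 to 2254 for hot leaves at 2, 6 and 24 h (5200, 9438 and 1335), and from 555 to 5303, 2403 to 8736 and 0 to 3337 for cold leaves (5055, 8692 and 2521). For differences of the hot change they ranged from 2 to 41 (6 minus 2 h, 13) and from 74 to 638 (24 minus 6 h, 210). HSA32 at 6 h rests on 0 to 10 reads a library, which limits its differences there.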
